A study of Mus musculus with 6 samples.

Results

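The genes that encode the fat-digesting enzymes of the pancreas and their cofactor were followed in cultured mouse acini with and without the secreted glycoprotein DKK3. The set was defined by name as Pnlip, Pnliprp1, Pnliprp2, Clps, Cel and Pla2g1b. All 6 were found in the table of read counts, out of 56953 genes listed, and all 6 passed the filter on low counts, as did 14738 genes in all.

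Acini are the clusters of secretory cells that make the digestive enzymes of the pancreas. Pancreatic triglyceride lipase, the product of Pnlip, cleaves dietary triglycerides in the gut, where bile salts would wash it off the fat droplet were it not held there by colipase, the product of Clps. Carboxyl ester lipase (Cel) depends on bile salts and also cleaves cholesteryl and retinyl esters, and the phospholipase A2 of the pancreas (Pla2g1b) digests phospholipids after trypsin has activated it. Pnliprp2 is a relative of pancreatic lipase that also accepts galactolipids and phospholipids, whereas Pnliprp1 is a relative with little known activity on triglycerides. Acinar cells that turn into duct-like cells, a process named acinar-to-ductal metaplasia (ADM), are known to lose such secretory products.

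The cultures were explanted pancreatic acini from mice, embedded in Matrigel under Waymouth medium with serum, trypsin inhibitor and dexamethasone, and collected on day 3 of an ADM assay. The 6 bulk RNA-seq libraries fall into 3 groups of 2, namely wild-type acini (WT, Dkk3+/+), Dkk3-null acini (DD) and Dkk3-null acini that had received recombinant DKK3 (DD + rDKK3). The null allele is present in every cell of the animal and lacks exon 2 of Dkk3, so loss of DKK3 was not restricted to acinar cells, and no library came from WT acini given the protein. The labels give WT ages of 10 and 11 weeks, DD ages of 12 and 13 weeks and DD + rDKK3 ages of 14 and 15 weeks. As labelled, age and group cannot be told apart, but the ages rise by exactly 1 week from library to library in that order, and whether they are true ages was not tested.

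Library totals ran from 12018473 to 19750401 counts. Libraries of 1 group differed by far more than counting noise (chi-square per degree of freedom of 22.96 or more), so no group held 1 library deposited again. By labelled age the libraries of a group came from different animals, which no label states outright, and p-values measure the spread between these samples. Dkk3 itself had 1 to 11 counts per library (WT 10 and 1, DD 11 and 9, DD + rDKK3 5 and 5), and a count over the whole gene does not separate exon 2 from the rest, so it does not check the labels. WT 2 was labelled female but had 141 CPM of 4 Y-linked genes, inside the 119 to 147 CPM of the 5 libraries labelled male, and 16 counts of Xist, which was at 0 in the others. CPM is the count as a share of the library total, in the usual parts per 10 to the power of 6, with totals adjusted by the trimmed mean of M values (TMM). All 8 acinar markers were detected in every library, with summed levels of 89045 to 150918 CPM. WT 1 stood apart in the genes described here, and the comparisons with WT are therefore also given without it.

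Pnlip and both of its relatives lie close together on the plus strand of chromosome 19 (GRCm39). Pnlip (ENSMUSG00000046008.9, 58640930 to 58670220), Pnliprp1 (ENSMUSG00000042179.7, 58717319 to 58732601) and Pnliprp2 (ENSMUSG00000025091.5, 58748151 to 58765966) together span 125037 bases. Clps (ENSMUSG00000024225.6) is on the minus strand of chromosome 17 from 28777123 to 28779740. Cel (ENSMUSG00000026818.6) is on the minus strand of chromosome 2 from 28445807 to 28453415, and Pla2g1b (ENSMUSG00000029522.13) is on the plus strand of chromosome 5 from 115604321 to 115612781. All are protein coding.

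The coding sequences of the 3 neighbours on chromosome 19 are related but far from identical. Pnlip and Pnliprp1 shared 70.7% of 1385 aligned coding bases, Pnlip and Pnliprp2 shared 70.9% of 1380, and Pnliprp1 and Pnliprp2 shared 68.3% of 1386. The stretch around the codon of the active-site serine is shown because it holds the catalytic residue that all 3 enzymes share by sequence. Each stretch is 69 bases of the coding strand within 1 exon, at chr19:58663498-58663566 for Pnlip, chr19:58721800-58721868 for Pnliprp1 and chr19:58751773-58751841 for Pnliprp2, and the capitals mark the serine codon within the lipase motif glycine-histidine-serine-leucine-glycine.
Pnlip: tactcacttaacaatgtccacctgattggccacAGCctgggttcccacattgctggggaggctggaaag
Pnliprp1: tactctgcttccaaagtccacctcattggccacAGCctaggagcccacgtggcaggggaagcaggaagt
Pnliprp2: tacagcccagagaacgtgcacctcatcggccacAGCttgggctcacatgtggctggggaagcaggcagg
Even so, no window of 50 bases in the canonical transcript of any of the 6 genes occurred in an annotated transcript of another gene. Among annotated transcripts, a read pair that covers such a window can be placed on 1 gene. Exons outside the canonical transcripts were not searched, nor was the rest of the genome. For Pnliprp1 the canonical transcript has 1619 bases, beside 4554 in all its annotated exons.

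The bases just before the transcription start are shown for the nearby genes Pnlip and Pnliprp1, whose log2 ratio had the largest SD over the libraries. Those of Cel, whose log2 ratio to Pnlip had an SD of 0.231, are shown as well. Pla2g1b followed Pnlip more closely, at 0.207, and is not shown. The bases come from the canonical transcripts of GENCODE M39 and run to the base before the start for Pnlip and Pnliprp1, at chr19:58658677-58658796 and chr19:58717199-58717318. For Cel, on the minus strand, they stop 42 bases before the start at chr2:28453416-28453494, because the bases in between are exon in another transcript. The canonical start of Pnlip, 58658797, lies inside the gene, which begins at 58640930, so another annotated start lies upstream. Capitals mark matches to CANNTG (the E-box, which the acinar factor PTF1A binds as part of a complex) and to TATAAA, the core promoter box of that name, both searched on each strand. The motif GGGAAA was searched as well and is not in these stretches.
Pnlip: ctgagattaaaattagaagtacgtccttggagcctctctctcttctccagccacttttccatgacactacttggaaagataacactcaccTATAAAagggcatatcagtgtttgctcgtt
Pnliprp1: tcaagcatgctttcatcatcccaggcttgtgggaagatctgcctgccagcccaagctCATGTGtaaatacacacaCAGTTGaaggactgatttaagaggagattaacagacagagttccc
Cel: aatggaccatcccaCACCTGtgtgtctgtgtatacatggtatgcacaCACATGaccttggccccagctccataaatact
From 250 bases before to 50 bases after the start, CANNTG was found in 4 of the 6 genes (Pnliprp1, Pnliprp2, Clps and Cel) and in 70.6% of 21770 promoters of coding genes. TATAAA was found in 2 of 6 (Pnlip and Pla2g1b) beside 13.2% of all, GGGAAA in 1 of 6 (Cel) beside 27.0%, AAGGNCA (bound by nuclear receptors such as NR5A2) in 4 of 6 beside 19.7% and GATAA (bound by factors such as the one encoded by Gata4) in 4 of 6 beside 24.5%. Matches of different motifs share bases in Pnlip (TATAAA and AAGGNCA) and in Cel (CANNTG and AAGGNCA), and a match is a description of letters only.

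To see how much of the cultures' message these genes made up, their counts were set against each library's total. They took 2.95% and 2.22% of all counts in WT 1 and WT 2, 1.82% and 1.85% for DD, and 2.46% and 2.13% after rDKK3, with exact 95% binomial intervals within 0.0096 percentage points of each share, which cover counting error only. Both DD libraries lay below the other 4. The mean share was 2.58% ± 0.516 for WT, 1.83% ± 0.0212 for DD and 2.29% ± 0.233 for DD + rDKK3 (SD over 2 libraries). In bulk RNA a smaller number of acinar cells and less message per cell cannot be told apart.

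**Figure D1:**
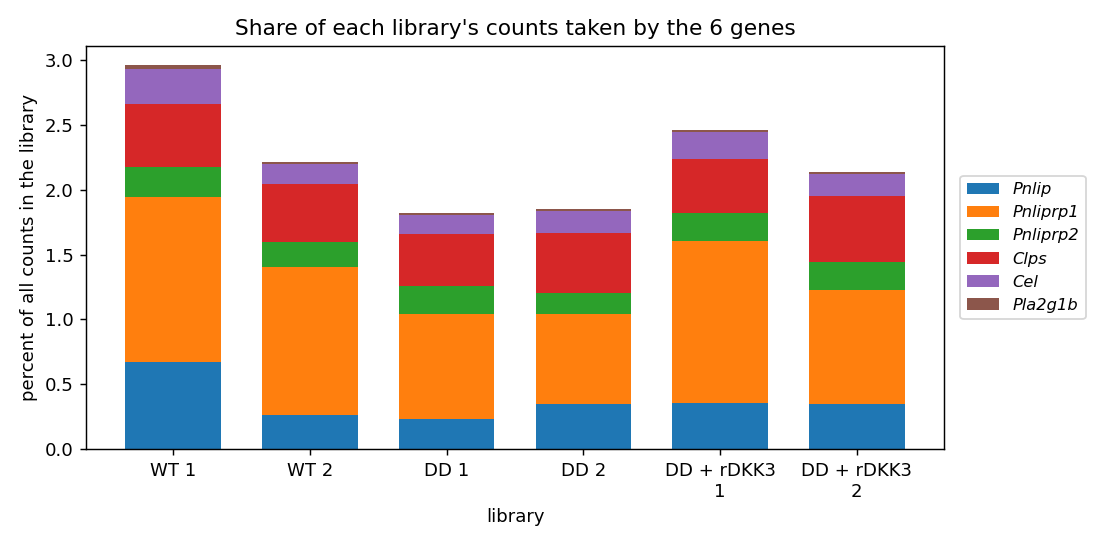
Stacked bars give the percent of all counts in each of the 6 libraries (x axis) that each of the 6 genes took (y axis, from 0). The bar of WT 1 reaches 2.95% and those of both DD libraries stop below 1.9%, and the segment of Pnliprp1 is the widest in every library.

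Among the 6 transcripts, colipase was the most abundant per length. On the scale of CPM per kilobase of all annotated exons, Clps averaged 6389.8 ± 931.4 (SD over the 6 libraries), Pnliprp1 2247.7 ± 706.7, Pnlip 1618.7 ± 871.3, Pnliprp2 1289.2 ± 260.7, Cel 894.0 ± 325.4 and Pla2g1b 202.4 ± 97.7. The lowest library for Clps (5261.6) exceeded the highest for any other gene, Pnlip in WT 1 at 3347.2. Pnliprp1, Pnlip and Pnliprp2 overlapped in their ranges, as did Pnliprp2 and Cel, while Pla2g1b stayed below all others in every library, at 148.6 to 397.7. The order was the same with the canonical transcript as length, but there Pnliprp1, whose exon union of 4554 bases includes long alternative exons, came to 6322.4 ± 1987.8 beside 7487.9 ± 1091.4 for Clps, and these 2 ranges overlapped.

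Pancreatic triglyceride lipase was the most variable of the set. Pnlip stood at 7906 CPM in WT 1 and 2688 CPM in WT 2, at 2208 and 3351 CPM in DD, and at 3479 and 3307 CPM in DD + rDKK3. WT 1 was 2.94 times WT 2, whereas WT 2 lay between the 2 DD libraries, so the groups overlapped. The log2 fold change was -0.93 for DD against WT (SE 0.459, edgeR quasi-likelihood test, unadjusted p 0.0787, Benjamini-Hochberg adjusted p 0.586). DD + rDKK3 stood at 0.29 relative to DD (SE 0.455, edgeR adjusted p 1) and at -0.64 relative to WT (SE 0.457, edgeR adjusted p 0.477).

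Pnliprp1, the lipase relative of little known activity, had the smallest p of the set in DD against WT. It reached 14937 and 11573 CPM in WT, 7565 and 6624 CPM in DD, and 12320 and 8397 CPM in DD + rDKK3. Both DD libraries lay below both WT libraries and below both DD + rDKK3 libraries, and WT and DD + rDKK3 overlapped. DD was 1.87-fold lower than WT, a log2 fold change of -0.90 (SE 0.257, unadjusted p 0.00859) that ranked 180 of 14738 genes by p but was not called by the edgeR test (adjusted p 0.586). DD + rDKK3 was 1.46-fold higher than DD (log2 fold change 0.55, SE 0.256, unadjusted p 0.0669, adjusted p 1), and against WT it was at -0.36 (SE 0.255, adjusted p 0.481).

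Pnliprp2, the lipase of broad specificity, had the smallest ratio of highest to lowest library but for Clps. Its levels were 2794 and 1911 CPM in WT, 1991 and 1510 CPM in DD, and 2152 and 2057 CPM in DD + rDKK3. WT 2 was below DD 1, and only the step from DD to DD + rDKK3 had no overlap. DD was at a log2 fold change of -0.43 relative to WT (SE 0.245, edgeR adjusted p 0.594), and DD + rDKK3 at 0.27 relative to DD (SE 0.245, adjusted p 1) and at -0.16 relative to WT (SE 0.245, adjusted p 0.749).

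Colipase, which carries no enzyme activity of its own, differed least between WT and DD. Clps was at 5668 and 4546 CPM in WT, 3767 and 4452 CPM in DD, and 4089 and 4929 CPM in DD + rDKK3. Both DD libraries lay below both WT libraries, though DD 2 and WT 2 were close. DD was at a log2 fold change of -0.31 relative to WT (SE 0.217, edgeR adjusted p 0.617), and DD + rDKK3 at 0.13 relative to DD (SE 0.217, adjusted p 1) and at -0.18 relative to WT (SE 0.217, adjusted p 0.679).

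Cel and Pla2g1b shared the pattern of Pnlip, with WT 2 among the DD libraries. WT 1 was above the rest, as in every gene of the set. Cel stood at 3191 and 1542 CPM in WT, 1333 and 1586 CPM in DD, and 2057 and 1577 CPM in DD + rDKK3. Pla2g1b stood at 382 and 148 CPM in WT, 143 and 156 CPM in DD, and 194 and 145 CPM in DD + rDKK3, on 2104 to 3886 counts per library. In both genes WT 2 lay inside the range of the DD libraries, and WT 1 was 2.07 and 2.58 times WT 2. For DD against WT the log2 fold changes were -0.70 for Cel (SE 0.339, adjusted p 0.586) and -0.83 for Pla2g1b (SE 0.394, adjusted p 0.586). After rDKK3 the values relative to DD were 0.32 and 0.18, and relative to WT -0.38 and -0.65, with adjusted p of 0.418 or more in the edgeR test.

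**Figure D2:**
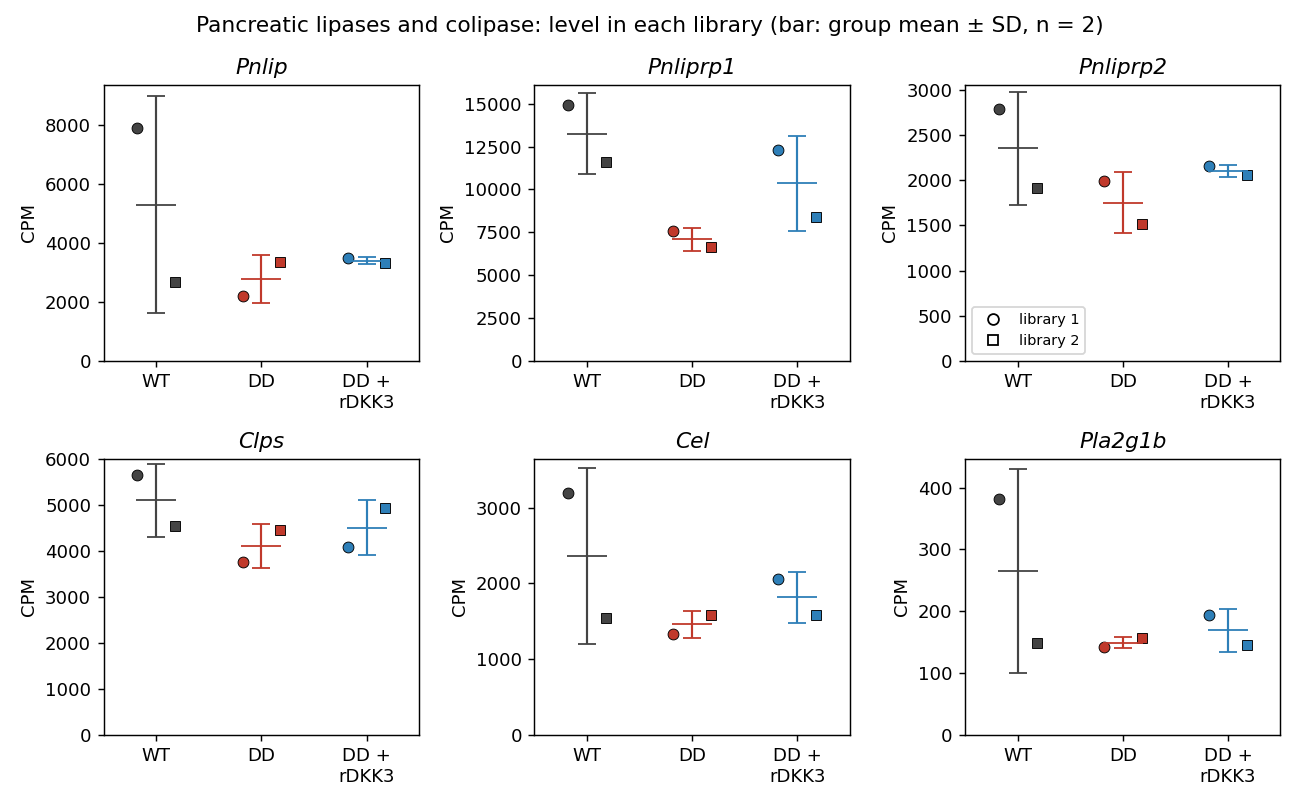
Each panel gives 1 gene, with CPM after TMM scaling on a linear y axis from 0 and the groups WT, DD and DD + rDKK3 on the x axis. Circles and squares are libraries 1 and 2 of a group, and bars are the mean ± SD of 2 libraries. In every panel the circle of WT 1 stands above all other points. For Pnlip, Cel and Pla2g1b the square of WT 2 lies between the DD points, whereas for Pnliprp1 and Clps both WT libraries lie above both DD libraries.

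Loss of DKK3 was examined over the set as a whole in the comparison of DD with WT. All 6 genes were lower in DD by log2 fold change, beside 48.3% of all genes tested, with a median of -0.76 beside 0.0164 for all genes. The edgeR test called 0 of the 6, beside 0.0407% of all genes (6 of 14738), and 1 of the 6 (Pnliprp1) had an unadjusted p under 0.05 in this direction, beside 3.99% of all genes. No overlap between WT and DD libraries was seen for 2 of the 6 (Pnliprp1 and Clps), beside 19.7% of all genes that were lower in DD with no overlap.

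The difference between WT and DD rested largely on WT 1. Without that library the median of the 6 was -0.088, and 4 of the 6 were lower. Pnlip then stood at 0.065 (SE 0.306) and Pla2g1b at 0.029 (SE 0.24), on the other side of 0, and Cel at -0.063 (SE 0.269). Pnliprp1 kept a log2 fold change of -0.69 (SE 0.297, unadjusted p 0.0575, adjusted p 0.952), while Pnliprp2 was at -0.11 and Clps at -0.13. Without WT 2 in its place, the median was -1.10, with Pnlip at -1.50, Pla2g1b at -1.35, Cel at -1.12 and Pnliprp1 at -1.07. Adjusted over all genes, none of these was called without either WT library, the lowest adjusted p being 0.201. DESeq2 called Pnliprp1 (adjusted p 0.0218) among 80 genes, and edgeR without the low-count filter called Pnlip and Pla2g1b (adjusted p 0.024 and 0.0121) among 528.

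**Figure D3:**
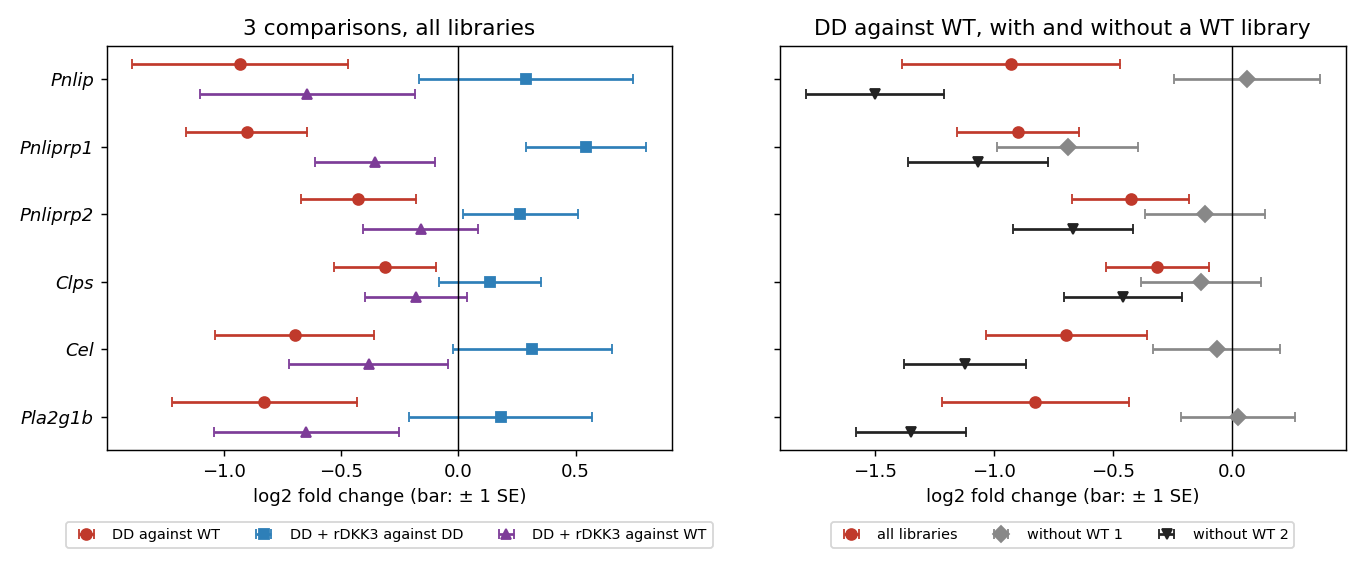
Log2 fold changes (x axes) of the 6 genes (y axis) with bars of ± 1 SE. The left panel gives the 3 comparisons over all libraries, where all 6 points lie below 0 for DD against WT and above 0 for DD + rDKK3 against DD. The right panel gives DD against WT with all libraries and without each WT library, where leaving out WT 1 moves Pnlip from -0.93 to 0.065 and Pnliprp1 from -0.90 to -0.69.

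The response to recombinant DKK3 was examined by comparing DD + rDKK3 with DD. All 6 genes were higher after the protein, beside 49.5% of all genes, with a median of 0.28 beside -0.00282 for all genes. These values share the DD libraries with the comparison above, so a low DD library moves both in opposite directions. The edgeR test called 0 of the 6, beside 0.0% of all genes, where 292 genes had an unadjusted p under 0.05 and DESeq2 called 5 genes. With the number in the titles of the Dkk3-null libraries as a replicate block, chosen after seeing the data, edgeR called 194 genes and 0 of the 6. At an unadjusted p under 0.05 there were 0 of the 6 in the edgeR test, beside 0.597% of all genes that were higher, and groups did not overlap for 2 of the 6 (Pnliprp1 and Pnliprp2), beside 15.1% of all genes that were higher with no overlap. Without DD 1 the log2 fold changes of Pnlip and Clps were -0.0047 and -0.0045, without DD + rDKK3 1 that of Pla2g1b was -0.0605, and without DD + rDKK3 2 that of Clps was -0.0154. Pnliprp1, Pnliprp2 and Cel stayed above 0 whichever library was left out, with Pnliprp1 between 0.23 and 0.79 over all alternatives.

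Against WT, the acini given rDKK3 were lower in all 6 genes by log2 fold change, beside 48.4% of all genes, with a median of -0.37 beside 0.0171. The edgeR test called 0 of the 6, beside 0.0475% of all genes (7 of 14738), and 0 of the 6 had an unadjusted p under 0.05, beside 8.0% of all genes that were lower. The groups overlapped for all 6, whereas 27.1% of all genes were lower with no overlap. Without WT 1 the direction turned for 5 of the 6, the exception being Pnliprp1, and the median was 0.19.

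Whether the genes kept their proportions was examined by ratios within a library, where scaling cancels. These are ratios of CPM, not per length, and only their differences between libraries are read. Pnliprp1 over Pnlip was 1.89-fold in WT 1, 4.31-fold in WT 2, 3.43-fold in DD 1, 1.98-fold in DD 2, 3.54-fold in DD + rDKK3 1 and 2.54-fold in DD + rDKK3 2. High and low ratios occurred in WT and in DD alike, and the SD of the log2 ratio over the 6 libraries was 0.486, the widest of the 15 pairs. The ratio of Pnlip to Clps, the message of its cofactor, was 1.39 in WT 1 and 0.586 to 0.851 in the other 5 libraries.

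The steadiest pair was Cel and Pla2g1b. Their ratio was 8.36 to 10.9 in the 6 libraries, an SD of 0.144 on the log2 scale, and that of Pnlip to Pla2g1b was 15.5 to 22.9, an SD of 0.207. The ratio of Pnliprp1 to Clps was 2.64 and 2.55 for WT, 2.01 and 1.49 for DD, and 3.01 and 1.70 after rDKK3. Both DD libraries lay below both WT libraries in this ratio, and likewise in that of Pnliprp1 to Pnliprp2 (5.35 and 6.06 in WT, 3.80 and 4.39 in DD). The remaining pairs of the 15 overlapped between WT and DD. With 2 libraries against 2 the exact permutation test, two-sided, cannot give a p below 0.333, which is the value for both ratios. Any pair without overlap reaches that value. Over all 45 comparisons (15 pairs, 3 contrasts) the lowest adjusted p of this exact test was 1.

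**Figure D4:**
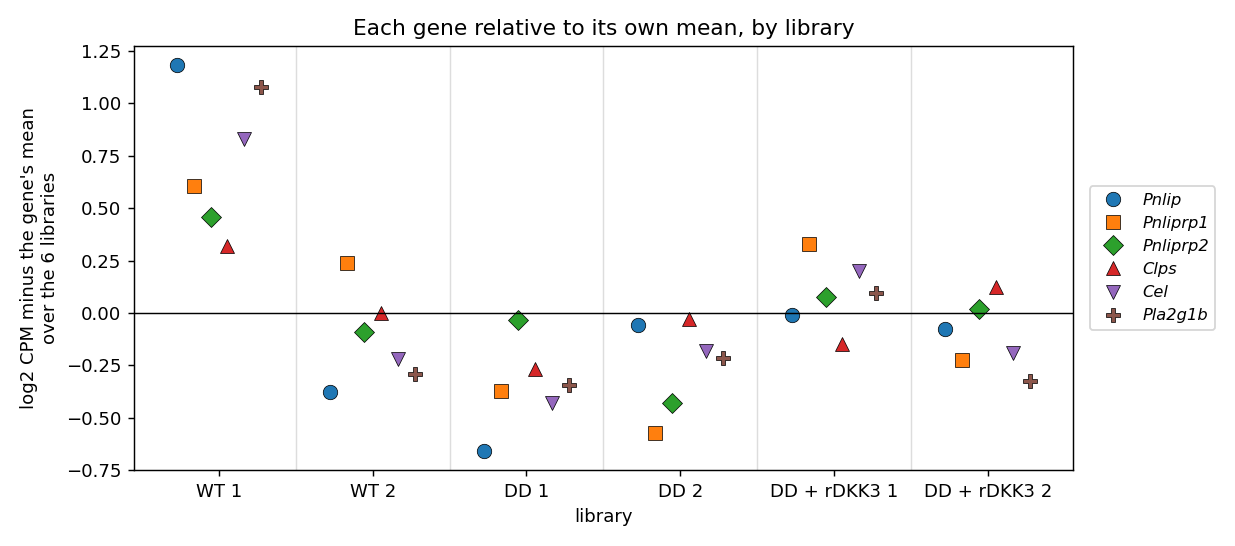
For each library (x axis), points give the log2 CPM of the 6 genes minus each gene's own mean over the 6 libraries (y axis). In WT 1 the points spread from Clps near 0.3 to Pnlip near 1.2, and in DD 2 Pnlip and Clps lie near 0 while Pnliprp1 and Pnliprp2 lie below -0.4.

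The lipases were then set beside other products of acinar cells. Of 29 further secretory products such as amylases, trypsinogens, elastases and carboxypeptidases, 28 were tested, and all 28 were lower in DD than in WT. Their median was -0.71 on the log2 scale. In the edgeR test 13 had an unadjusted p under 0.05, beside 3.99% of all genes that were lower, and 0 were called. Without WT 1, 26 of the 28 were lower with a median of -0.39, beside a median of -0.088 for the lipases and colipase. Amy2b (an amylase gene listed as a pseudogene, with near-identical copies) had the smallest p, at 404 and 230 CPM in WT, 38.4 and 56.1 CPM in DD and 55.3 and 71.4 CPM in DD + rDKK3 (log2 fold change in DD -2.75, SE 0.323, adjusted p 0.0786). Rnase1, the pancreatic ribonuclease, was at -0.85 (SE 0.209, adjusted p 0.555) and Try10, a trypsinogen, at -0.59 (SE 0.165, adjusted p 0.586). After rDKK3, 25 of the 28 were higher than in DD with a median of 0.21, which without DD + rDKK3 1 became 18 of 28 with a median of 0.12. Rnase1 was at 327 and 400 CPM in DD and at 537 and 532 CPM after rDKK3 (edgeR adjusted p 1). The 6 lipase genes and these products were also compared as shares, the 6 taking 13.9% and 11.7% of the counts of both sets for WT, 10.6% and 12.4% for DD, and 12.6% and 12.8% after rDKK3.

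Transcription factors of the acinar program were set beside these products. Of 10 such factors 8 were higher in DD by log2 fold change, with a median of 0.25 and 0 at an unadjusted p under 0.05, and 0 called by edgeR. The median was 0.042 without WT 1, 0.084 without DD 1, and 0.39 without WT 2 or without DD 2. Ptf1a, the core of the complex that drives enzyme genes, was at 119 and 220 CPM in WT, 242 and 209 CPM in DD and 264 and 285 CPM in DD + rDKK3 (log2 fold change in DD 0.41, SE 0.278, adjusted p 0.612). Its lowest library was WT 1, the one with the most Pnlip. Rbpjl, its acinar partner, was at 0.11 (SE 0.222, adjusted p 0.862) and Nr5a2, a nuclear receptor of acinar genes, at -0.056 (SE 0.242, adjusted p 0.94). Xbp1, a regulator of the secretory apparatus, had the smallest p of the list, at 1376 and 1055 CPM in WT and 1010 and 776 CPM in DD (log2 fold change -0.45, SE 0.225, adjusted p 0.586). Foxa2, a forkhead factor of endoderm, was at 0.26 (SE 0.166, adjusted p 0.606).

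Genes that handle fat by other routes were compared next, with no call by edgeR in any of the lists. Of 16 further members of the lipase families 6 were tested, with a median of 0.15 in DD against WT, which turned to -0.086 without DD 2 and was 0.37 without DD 1. Lpl, the lipoprotein lipase that acts at the vessel wall, was at 98.04 and 158 CPM in WT and 191 and 197 CPM in DD (log2 fold change 0.60, SE 0.24, adjusted p 0.586). Liph stood at 0.39 (SE 0.198) and Lipc, the hepatic lipase, at -0.83 (SE 0.431) on levels of 0.941 to 2.55 CPM. Of 18 names listed as other phospholipases, 17 were among the genes counted and 8 were tested. Their median was 0.38, which was 0.15 without DD 2 and 0.22 without WT 2. Among them Pla2g12b was at 0.393 and 0.141 CPM in WT and 1.37 and 3.65 CPM in DD (log2 fold change 3.27, SE 0.727, adjusted p 0.484), Plaat3 at -0.65 (SE 0.256) and Pla2g4a, the cytosolic phospholipase that releases arachidonic acid, at 0.50 (SE 0.28). In WT 1 and WT 2, 3 counts amount to 0.25 and 0.208 CPM. Pla2g12b was thus under the filter's minimum of 10 counts in WT and was kept by the Dkk3-null libraries, where it was high.

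Of 12 genes of intracellular lipolysis 10 were tested, with a median of -0.086 and 0 at an unadjusted p under 0.05 in DD against WT by edgeR. That median turned to 0.064 without DD 2 and to 0.014 without WT 2, and was -0.18 without DD 1 and -0.17 without WT 1. Abhd6, a monoacylglycerol lipase, was at -0.27 (SE 0.15) and Pnpla8 at -0.15 (SE 0.16). Ces1d was at -0.82 (SE 0.765), but its groups overlapped, with 5.6 and 35.4 CPM in WT and 15.4 and 7.88 CPM in DD. Of 23 genes of fat uptake and re-esterification, which act on what the pancreatic lipases release, 18 were tested, 13 of them higher in DD with a median of 0.20 (0.32 without WT 1). In the edgeR test 4 of the 18 had an unadjusted p under 0.05, beside 1217 of all 14738 genes. Dgat2, which makes triglycerides from diglycerides, was at 43.7 and 45.1 CPM in WT, 95.5 and 68.8 CPM in DD and 59.7 and 65.2 CPM in DD + rDKK3, without overlap between WT and DD (log2 fold change 0.89, SE 0.187, unadjusted p 0.00163, adjusted p 0.442). Abcg5, a subunit of a sterol exporter, was at 1.48 (SE 0.321, adjusted p 0.459) and the fatty acid binding protein gene Fabp2 at 2.34 (SE 0.647, adjusted p 0.586) on levels of 0.0982 to 1.94 CPM. Fabp2 was also under the filter's minimum of 10 counts in WT and was kept by the Dkk3-null libraries, where it was higher. After rDKK3, 15 of the 18 were lower than in DD with a median of -0.25, which was 11 of 18 with a median of -0.13 without DD 1 and a median of -0.41 without DD + rDKK3 2.

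**Figure D5:**
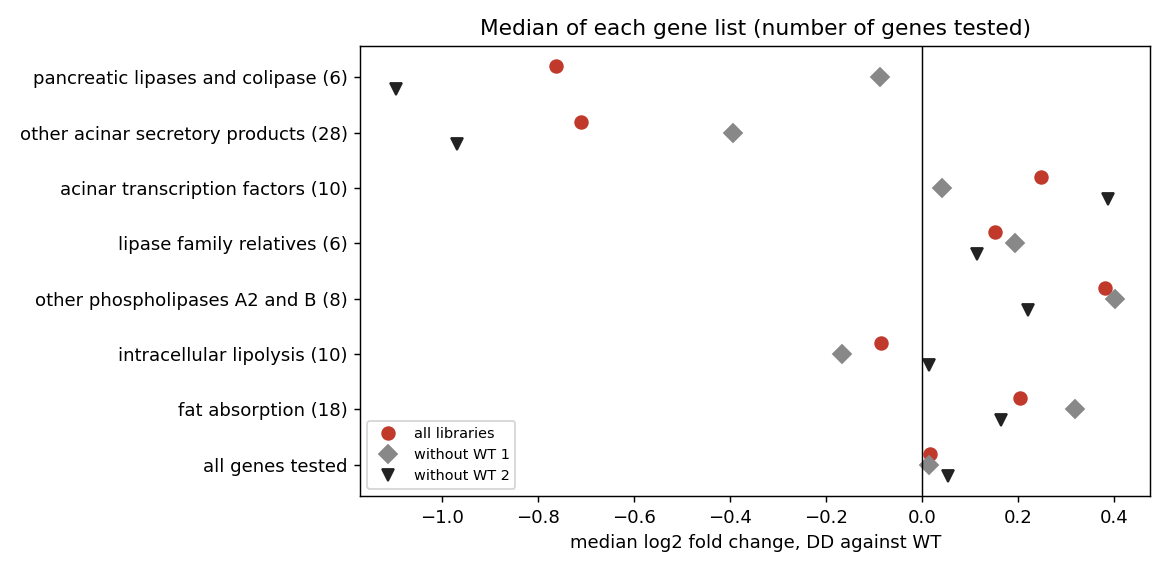
Points give the median log2 fold change of DD against WT (x axis) for each gene list (y axis, number of genes tested in parentheses), with all libraries and without each WT library. The median of the pancreatic lipases and colipase moves from -0.76 to -0.088 without WT 1, and that of the other secretory products from -0.71 to -0.39.

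Markers of other cells also differed between libraries. All 8 fibroblast and stellate markers were detected, at summed levels of 110 and 37.4 CPM in WT, 59.4 and 725 CPM in DD, and 145 and 814 CPM in DD + rDKK3, so DD 2 and DD + rDKK3 2 stood apart. The 8 ductal markers summed to 2322 and 1742 CPM in WT, 1647 and 2532 CPM in DD, and 1601 and 1773 CPM in DD + rDKK3. Macrophage markers (7 of 7) summed to 140 to 309 CPM, endothelial markers (6 of 6) to 99.0 to 172 CPM, islet markers (7 of 7) to 152 to 284 CPM and adipocyte markers to 67.0 to 186 CPM, with Lep at 0 counts in 4 libraries. The 8 lymphocyte markers summed to at most 0.982 CPM, with Nkg7 and Ms4a1 at 0 in all libraries. The part of these cells in the values of the lipase genes was not tested.

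The position of the genes was considered by comparing them with their neighbours within 200 kb. Of 82 neighbouring genes 32 passed the filter, 20 lower and 12 higher in DD. Their median was -0.11 on the log2 scale, with 4 at an unadjusted p under 0.05 by edgeR, beside 1217 of all 14738 genes. Around the chromosome 19 cluster, the noncoding 1810018F18Rik between Pnlip and Pnliprp1 was at 0.528 to 3.24 CPM (log2 fold change -0.69, SE 0.636, adjusted p 0.691), and Shtn1 beyond Pnliprp2 was at 70.8 to 94.1 CPM (0.18, SE 0.153, adjusted p 0.66). Near Clps, the glucocorticoid-inducible Fkbp5 was at 0.60 (SE 0.187, adjusted p 0.586), and near Cel, Ralgds was at 0.45 (SE 0.156, adjusted p 0.586). The other 2 with an unadjusted p under 0.05 were Gfra1 upstream of Pnlip, at -1.15 (SE 0.439), and Bicdl1 near Pla2g1b, at 0.77 (SE 0.209), and none of the 32 was called by edgeR.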

How the data were processed

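Bulk RNA-seq counts of 6 libraries were analysed. Per the labels and the study's methods, the authors aligned strand-specific 50-base read pairs with STAR 2.7.9a to GRCm39 and GENCODE M32, and counted pairs over exons in union mode, summed per gene. The deposited values are raw counts, not normalised and not pooled. The submitters' processing notes also name Picard 2.19.2 and DESeq2 1.38.0. The table held 57045 rows, of which 92 spike-in rows with 0 counts were left out.

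From these counts, genes were kept by filterByExpr (minimum count 10, minimum total 15), scaled by TMM and fitted with edgeR 4.0.16 (R 4.3.3) by a quasi-likelihood model of the 3 groups on the 6 libraries together. P-values are two-sided, adjusted by Benjamini-Hochberg over 14738 genes and called under 0.05. Log2 CPM used a prior count of 2. Procedures were tested on simulated data. Alternatives were RLE size factors, library totals alone, TMM without acinar products, no filter, DESeq2 1.42.0, limma-voom 3.58.1, 2 groups only, a replicate block and each library left out.

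The 6 genes and all lists were chosen with earlier results of these data known. Named were the 6 genes, up to 3 genes of each list with the smallest p in DD against WT, Ptf1a, Rbpjl and Nr5a2, the 3 genes most like each of the 6, and neighbours within 200 kb. A gene that this rule names is not reported here. Ratios were compared by exact permutation tests. Sequences, lengths and starts came from the GRCm39 genome with GENCODE M39, since M32 was not used here. Gene-level counts do not separate transcripts.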

Additional observations from a re-analysis of the deposited data

How the results depend on the processing

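With 2 libraries a group, 1 library could decide a direction. Of 258 log2 fold changes of single genes under the alternatives, 12 turned direction, 11 of them among the 108 with a library left out. Those 108 include fits without a library outside the comparison, which hardly moved the values. Without WT 1 the turned values were 0.065 (Pnlip) and 0.029 (Pla2g1b) for DD against WT, and 0.36 (Pnlip), 0.16 (Pnliprp2), 0.0067 (Clps), 0.26 (Cel) and 0.21 (Pla2g1b) for DD + rDKK3 against WT. Without DD 1 those for DD + rDKK3 against DD were -0.0047 (Pnlip) and -0.0045 (Clps), without DD + rDKK3 1 it was -0.0605 (Pla2g1b) and without DD + rDKK3 2 it was -0.0154 (Clps). Scaling by library totals alone turned Pnliprp2 to 0.0247 for DD + rDKK3 against WT, and moved the median of all genes by 0.2 for DD against WT and by 0.16 for DD + rDKK3 against WT. With that scaling the median of the 6 genes was -0.51 for DD against WT, beside -0.76 with TMM. For DD + rDKK3 against WT it was -0.18, beside -0.37. With a library left out, the other ends of the ranges of these genes were -1.50 (Pnlip) and -1.35 (Pla2g1b) for DD against WT, 0.62 (Pnlip), 0.26 (Clps) and 0.37 (Pla2g1b) for DD + rDKK3 against DD, and -1.21 (Pnlip), -0.40 (Pnliprp2), -0.32 (Clps), -0.81 (Cel) and -1.17 (Pla2g1b) for DD + rDKK3 against WT. Depth did not limit these genes, each with 2104 counts or more in every library.

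With 1 library left out, the median of the 6 genes ran from -1.10 to -0.088 for DD against WT, from 0.14 to 0.35 for DD + rDKK3 against DD and from -0.66 to 0.19 for DD + rDKK3 against WT. The number of the 6 in the stated direction, an alternative added after the data were seen, ran from 4 to 6, from 4 to 6 and from 1 to 6 in the same order. The number at an unadjusted p under 0.05 ran from 0 to 5, from 0 to 1 and from 0 to 3, and the genes called over the whole table from 2 to 6, from 0 to 0 and from 2 to 9.

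Among the other alternatives, DESeq2 called 80, 5 and 74 genes in the 3 comparisons, in the order above, and had 2 of the 6 in DD against WT and 1 in DD + rDKK3 against DD at an unadjusted p under 0.05. Without the filter on low counts edgeR called 528, 73 and 788 genes and had 4, 1 and 2 of the 6 at an unadjusted p under 0.05, and limma-voom called 3 genes in DD + rDKK3 against WT. Scaling by library totals alone gave 1 of the 6 at an unadjusted p under 0.05 in DD + rDKK3 against DD. The cause of these shifts was not tested. For these fits the share of all genes at an unadjusted p under 0.05 is not given. The counts of the 6 are therefore not read as a result about the set. With counts outside all acinar products as denominator, the share of the 6 genes came to 3.24% for WT, 2.19% for DD and 2.81% for DD + rDKK3.

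The replicate numbers were not taken to pair the libraries, since the labels name no shared animal and give different ages, although the titles of DD and DD + rDKK3 share the names DD1 and DD2. The deviations of same-numbered libraries from their group means correlated at 0.65 for DD with DD + rDKK3 but at -0.387 and -0.247 for WT with each. With the number as a block, edgeR called 7, 0 and 5 genes, with 1, 1 and 0 of the 6 at an unadjusted p under 0.05. A block within the Dkk3-null libraries alone, added after the data were seen, called 194 genes for DD + rDKK3 against DD, with 0 of the 6 called and 1 (Pnliprp1, log2 fold change 0.52, adjusted p 0.408) at an unadjusted p under 0.05. For the block fits too, the share of all genes at that unadjusted p is not given, and the counts are not read further.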

Other observations

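The genes whose levels were most like those of each lipase over the 6 libraries were listed by Pearson's r of log2 CPM among 4241 protein-coding genes of sufficient level. This is the top of a long ranking over few libraries, it is given as a description, and WT 1 enters every value. Pla2g1b was most like Sar1a (r = 0.9915), a GTPase of vesicles that leave the endoplasmic reticulum, and Ctrl (0.99), a chymotrypsin-like protease of acini, which was also second for Cel (0.9869). Ctrl stood at 2049 and 835 CPM in WT, 783 and 821 CPM in DD, and 1118 and 888 CPM in DD + rDKK3. Pnliprp2 was most like Mbd2 (0.9892), Sec61a1 (0.9889), a subunit of the channel into the endoplasmic reticulum, and Gp2 (0.983), the zymogen granule glycoprotein.

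Pnliprp1 was most like Syne4 (0.9901), Ahcy (0.9849), which hydrolyses S-adenosylhomocysteine, and Hmg20b (0.9847). Ahcy stood at 686 and 591 CPM in WT, 473 and 396 CPM in DD, and 602 and 458 CPM in DD + rDKK3. Pnlip was most like Gmppa (0.9814), Nfil3 (0.9807) and Ifitm3 (0.9775), and Clps was most like Dipk1a (0.9823), Kctd14 (0.9766) and Cnn3 (0.9761). Cel was also close to Sh3yl1 (0.989) and Trabd (0.9805), and Pla2g1b to Ndufa13 (0.9778). No acinar secretory product of the list was among the 3 closest to Pnlip, Pnliprp1 or Clps.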
